A study of Mus musculus with 6 samples.

Results

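Myelin and oligodendrocyte genes were followed in 6 arrays of mouse RNA labelled as colon crypt. The 9 genes were Mbp, Mobp, Mog, Mag, Cnp, Ermn, Opalin, Olig1 and Olig2, chosen by name with earlier results of these data known. Each was matched by the gene symbol of the platform annotation. All 9 had a probe set, 1 each, among 19505 genes with a symbol and 22206 transcript probe sets. With several probe sets for a gene the one of highest mean would have been kept, and with 1 each no such choice was made. The arrays fell into 3 MBELN samples, from C57BL/6J mice given exosome-like nanoparticles of mulberry bark in 100 µl by mouth daily for 7 days, and 3 PBS samples, from control mice of the same strain. Crypts, the glandular pits of the colonic epithelium, were isolated for RNA in both. No genetic change is named for either group, and the labels used here give neither age nor sex. Whether the arrays came from different mice is not said in them, so the spread behind each p-value may be technical. Arrays are named by group and the number in their title, and their small number limits precision throughout.

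Oligodendrocytes are the glial cells that wrap axons of the brain and spinal cord in myelin, a stack of membrane layers that speeds conduction. In the gut, nerve fibres are largely unmyelinated and are accompanied by enteric glia rather than oligodendrocytes. The genes fall into proteins of the sheath (Mbp, Mobp, Mog, Mag, Cnp), other oligodendrocyte proteins (Ermn, Opalin) and transcription factors of the lineage (Olig1, Olig2). SOX10 and MYRF are further transcription factors known to drive myelin genes.

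Since all 9 genes were highest in the same array, the sequence before their start sites was read from RefSeq (GRCm38.p6). Windows of 7 of the 9 genes were used and none of Mbp or Olig1, so the counts below leave these 2 genes out. Mbp was the gene that stood furthest above the other arrays, so the counts do not speak for all 9 genes. There were 9 windows of 250 bases ending at a start site, 3 of them for Mag, of which 2 overlap. Both strands were searched for ACAATG or ACAAAG (SOX), CTGGCAC or CTGGTAC (MYRF) and CANNTG (E-box). A SOX match stood in 7 of 9 windows, or 6 of 7 genes, against 25.2% of all 32851 windows of the table. The 2 overlapping windows of Mag hold the same SOX match, counted in each. A MYRF match stood in 4 of 9, those of Cnp and Mog and the 2 overlapping windows of Mag, against 5.93% of all windows. An E-box stood in 4 of 9, against 66.2%. These are matches of letters and not shown binding sites. The following 4 windows hold the MYRF letters or, in Mobp, the most SOX matches, 6, all in a stretch rich in T. Capitals mark SOX and MYRF matches, and no capitals of one overlap the other.
Mag, chr7:30914864-30915113, minus strand: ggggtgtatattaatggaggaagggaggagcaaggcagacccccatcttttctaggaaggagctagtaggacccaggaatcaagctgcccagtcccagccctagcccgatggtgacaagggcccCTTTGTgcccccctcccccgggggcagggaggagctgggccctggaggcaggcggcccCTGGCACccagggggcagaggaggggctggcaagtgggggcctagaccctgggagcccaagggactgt
Cnp, chr11:100574689-100574938, plus strand: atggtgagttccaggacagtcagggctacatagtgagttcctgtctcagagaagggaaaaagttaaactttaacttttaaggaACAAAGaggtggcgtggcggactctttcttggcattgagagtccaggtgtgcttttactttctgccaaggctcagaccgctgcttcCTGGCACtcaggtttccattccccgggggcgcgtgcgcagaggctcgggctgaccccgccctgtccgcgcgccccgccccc
Mog, chr17:37023399-37023648, minus strand: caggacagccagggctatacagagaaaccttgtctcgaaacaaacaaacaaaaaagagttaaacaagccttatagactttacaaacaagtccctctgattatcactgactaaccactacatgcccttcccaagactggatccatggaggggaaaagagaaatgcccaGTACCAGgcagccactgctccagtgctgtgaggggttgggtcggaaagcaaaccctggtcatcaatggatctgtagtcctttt
Mobp, chr9:120149492-120149741, plus strand: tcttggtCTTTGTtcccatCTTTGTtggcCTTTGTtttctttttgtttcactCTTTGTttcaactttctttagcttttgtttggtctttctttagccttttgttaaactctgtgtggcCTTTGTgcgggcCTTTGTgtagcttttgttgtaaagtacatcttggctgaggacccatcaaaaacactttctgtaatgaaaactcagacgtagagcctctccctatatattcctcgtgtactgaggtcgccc
In the Mag and Cnp windows both a SOX and a MYRF match are present. The Mog window has a MYRF match and no SOX match in these letters.

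The arrays did not all carry the marker genes of their label. The median of 11 gut epithelium genes was 7.13, 3.03 and 6.08 in MBELN 1, 2 and 3, against 19.38, 18.18 and 19.31 in PBS 1, 2 and 3. The PBS arrays were not all alike, since PBS 2 correlated at 0.89 with PBS 1 and with PBS 3, which correlated at 0.98 with each other. The summed log2 value of the 11 genes was 183.9 in PBS 2, against 202.0 in PBS 1 and 202.9 in PBS 3. The median of 12 neuron genes was 15.84 in MBELN 2, and between 3.55 and 4.14 in the other 5 arrays. A list of 10 heart muscle genes had a median of 18.73, 3.90 and 19.14 in MBELN 1, 2 and 3, against 4.24 to 4.52 in PBS. Groups are named here by their labels, and the tests of the 9 genes and of each gene list are given with and without the array labelled MBELN 2. Values are the deposited ones, read as log2, and their top lay at 19.9. A dim level was set per array as the 95th percentile over 1414 probe sets of olfactory and vomeronasal receptors, genes used mainly in the nose, and lay between 3.99 and 4.44 in the 6 arrays.

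**Figure D1:**
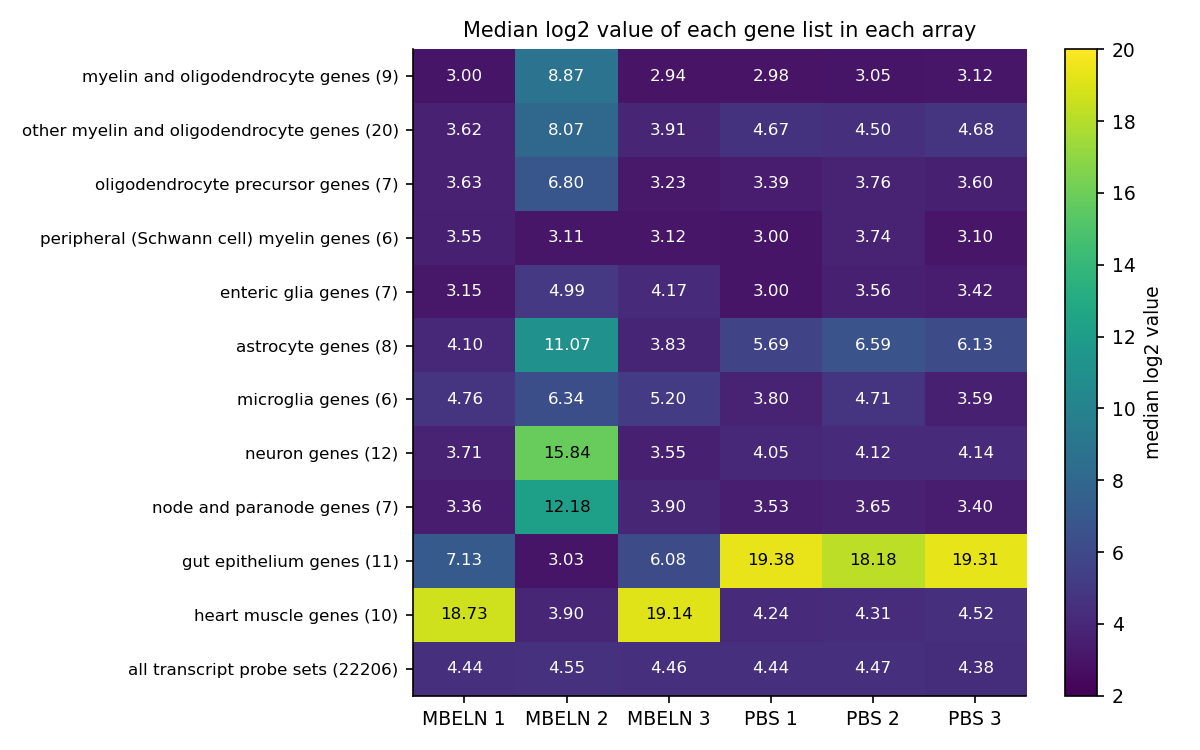
Median log2 value of each gene list (rows, with the number of measured genes) in each array (columns). The 9 myelin and oligodendrocyte genes had a median of 8.87 in MBELN 2 and between 2.94 and 3.12 in the other 5 arrays, and the lists of neuron, node and astrocyte genes were also highest in MBELN 2.

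All 9 genes had their highest value in MBELN 2, as did 24.6% of all probe sets. In that array each lay above the dim level, and 7 of the 9 lay below it in the other 5 arrays, the exceptions being Mbp and Cnp. With values under the dim level of the other arrays raised to that level, the gap between MBELN 2 and the next highest array was between 1.62 log2 units for Mag and 14.16 for Mbp. By this measure 8 of the 9, all but Mag, exceeded every other array by at least 2 log2 units, as did 8.23% of the 22206 probe sets. In the other arrays the share of probe sets that stood highest by that margin was between 0.0675% in PBS 3 and 1.46% in PBS 2. Since the genes were chosen with results of these arrays known, these counts are a description.

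Mbp encodes myelin basic protein, which holds the inner faces of the membrane together in compact myelin. It read 3.02, 18.89 and 4.61 in MBELN 1, 2 and 3, against 3.74, 3.65 and 4.72 in PBS 1, 2 and 3. The value in MBELN 2 lay close to the top of the scale, so its distance from the others may be understated. Mbp was also just above the dim level in MBELN 3 (4.44) and in PBS 3 (3.99), 1 array of each label.

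Mobp encodes another basic protein of central myelin. It read 2.90, 13.73 and 2.87 in MBELN 1, 2 and 3, and 2.67, 3.01 and 2.57 in PBS 1, 2 and 3. All values but that of MBELN 2 lay below the dim level, so MBELN 2 was at least 9.30 log2 units, or 628.5-fold, above the level any other array could show. This bound uses the highest dim level of the other arrays. The 5 remaining values spanned 0.44 log2 units.

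Mog encodes an immunoglobulin-like protein on the outermost surface of the sheath. It read 3.37, 7.27 and 2.94 in MBELN 1, 2 and 3, and 3.01, 3.21 and 3.12 in PBS 1, 2 and 3. Mag encodes an adhesion protein on the side of the sheath that faces the axon. Its values were 3.0, 6.05 and 3.15 in MBELN 1, 2 and 3, and 2.98, 2.88 and 2.77 in PBS 1, 2 and 3. For both genes MBELN 2 was the single array above the dim level, and exceeded the highest such level of the others by 2.84 log2 units for Mog and 1.62 for Mag. Mag was the single gene of the 9 whose MBELN and PBS values did not overlap, a pattern that 11.9% of all probe sets showed in that direction, and the 2 labels overlapped in the other 8 genes. Its 5 low values were all below the dim level, where they have no order.

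Cnp encodes a cyclic nucleotide phosphodiesterase of non-compact myelin and is also transcribed outside the nervous system. It read 5.03, 11.46 and 5.07 in MBELN 1, 2 and 3, against 6.32, 5.73 and 6.28 in PBS 1, 2 and 3. It was the single gene of the 9 above the dim level in all 6 arrays. MBELN 1 and MBELN 3 lay below each of the PBS arrays, and MBELN 2 lay 5.14 log2 units above the highest of them.

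Ermn encodes ermin, an actin-binding protein of oligodendrocytes. It read 4.28, 10.43 and 3.39 in MBELN 1, 2 and 3, and 3.50, 3.94 and 3.60 in PBS 1, 2 and 3. Opalin encodes a membrane glycoprotein of oligodendrocytes. It read 2.83, 7.10 and 2.68 in MBELN 1, 2 and 3, and 2.45, 3.05 and 2.37 in PBS 1, 2 and 3. MBELN 2 was again alone above the dim level for both, and exceeded the highest such level of the others by 5.99 log2 units for Ermn and 2.66 for Opalin.

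Olig1 and Olig2 encode basic helix-loop-helix factors that specify and mature the lineage. Olig1 read 2.57, 7.64 and 2.65 in MBELN 1, 2 and 3, and 2.49, 2.53 and 2.81 in PBS 1, 2 and 3. Olig2 read 2.94, 8.87 and 2.79 in MBELN 1, 2 and 3, and 2.78, 2.65 and 3.20 in PBS 1, 2 and 3. Both factors followed the genes of the sheath, with a single array above the dim level which exceeded the highest such level of the others by 3.21 log2 units for Olig1 and 4.43 for Olig2.

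**Figure D2:**
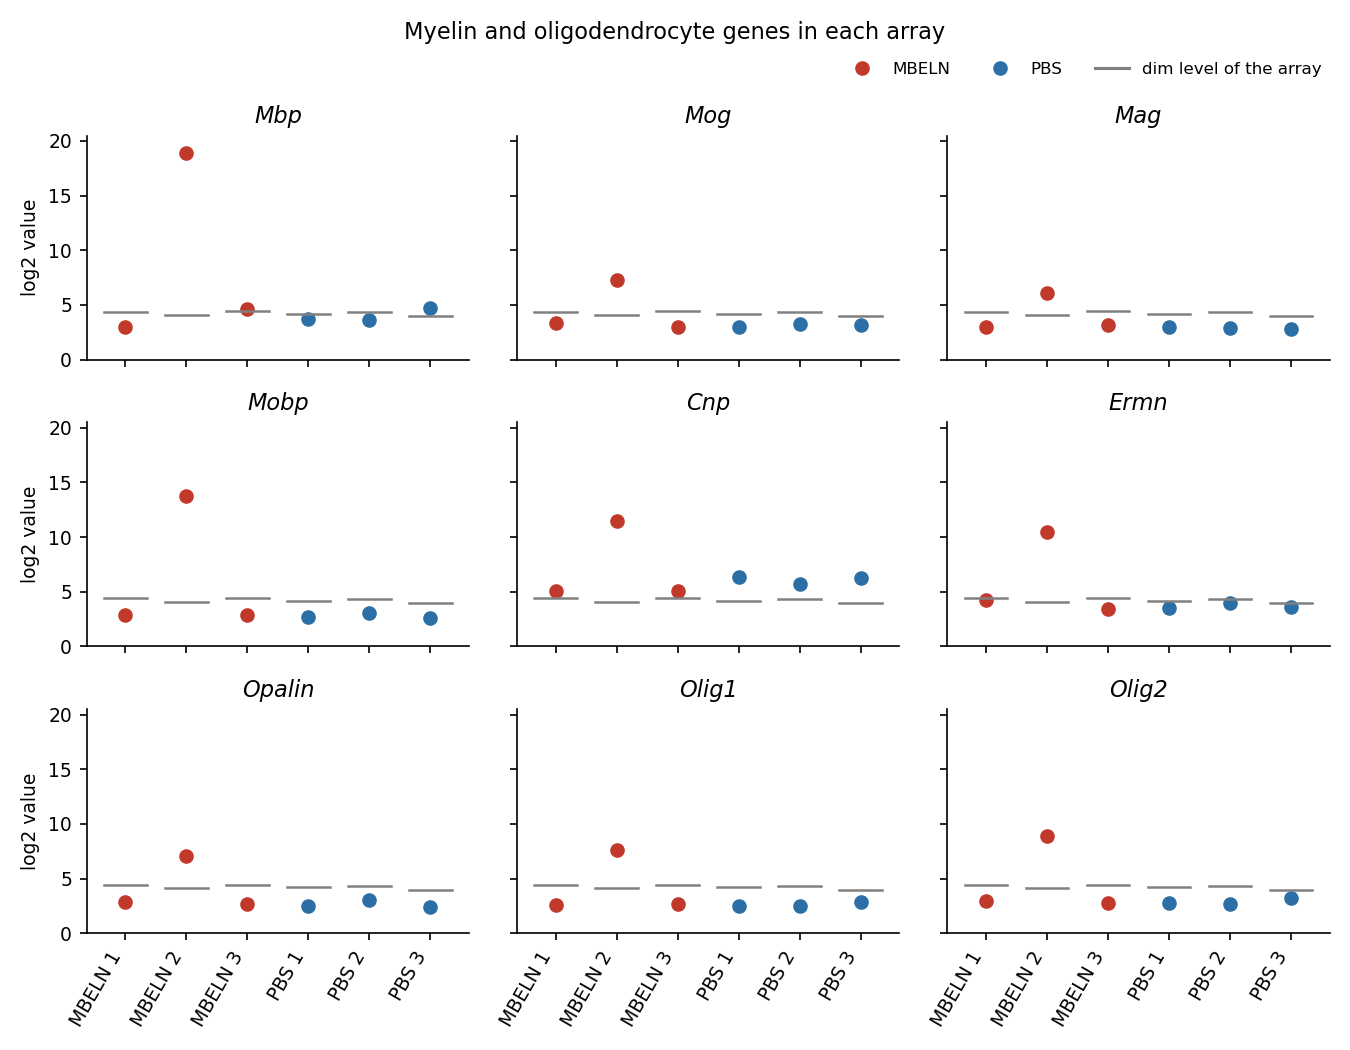
Log2 value of each of the 9 genes (panels) in each array, MBELN arrays in red and PBS arrays in blue, with the dim level of the array as a grey line. MBELN 2 is the highest array in each panel, for example at 18.89 for Mbp against at most 4.72 in the other arrays, and Cnp is the single gene with all 6 points above the line.

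The series compared MBELN with PBS. Over the 3 arrays of each label, the mean differences of the 9 genes lay between 1.07 log2 units for Cnp and 4.80 for Mbp, with a median of 1.68, against 0.09 over all probe sets. None passed the test: with limma and Benjamini-Hochberg adjustment over 22206 probe sets, 0 of 9 rose and 0 fell, 0 had an unadjusted p under 0.05, and adjusted p lay between 0.548 and 0.801. Over all probe sets, 1.42% were called higher and 3.76% lower in MBELN, and 17.8% had an unadjusted p under 0.05. Mbp averaged 8.84 ± 8.74 in MBELN and 4.04 ± 0.59 in PBS (SD, n = 3 each), a difference of 4.80 ± 4.26 (SE) with a 95% interval of -5.78 to 15.38. Mobp averaged 6.50 ± 6.26 in MBELN and 2.75 ± 0.23 in PBS (SD, n = 3 each), where the PBS mean is below the dim level. The spread within the MBELN label was thus larger than the difference between labels for both genes. For 7 of the 9 genes every PBS array was below the dim level. Set against that level, the MBELN mean gave a fold of 5.03 for Mobp, 3.65 for Ermn, 1.62 for Olig2, 1.28 for Mog, 1.09 for Olig1 and 1.02 for Opalin. Mag gave no fold because its MBELN mean lay under the level. In each of these genes 1 of 3 MBELN arrays was above the level. The folds therefore rest on that array and are not lower limits, since the MBELN means include values below the level.

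Without MBELN 2, 0 of 9 genes passed, against 16.8% of all probe sets. In that fit 1, Cnp, had an unadjusted p under 0.05, as did 6508 of all 22206 probe sets. In 7 of the 9 every one of the 5 remaining arrays lay below the dim level, so these genes had no measured level left to compare. The differences of the other 8 lay between -0.23 and 0.20 log2 units. For Mbp this was -0.23 ± 0.60 (SE) and for Mobp 0.13 ± 0.28, with limma adjusted p = 0.856 and 0.818. The 95% interval was -1.74 to 1.29 for Mbp and -0.58 to 0.85 for Mobp. Cnp differed from these, with -1.06 ± 0.31 and adjusted p = 0.0822. Without both PBS 2 and MBELN 2, Cnp fell by 1.25 ± 0.31 log2 units (limma, adjusted p = 0.0214), the single call among the 9, in a setting in which 15.4% of all probe sets were called lower. Beside Cnp, the summed log2 values of the 11 gut epithelium genes were 74.15, 36.92 and 65.99 in MBELN 1, 2 and 3 and between 183.9 and 203 in PBS. All 11 were lower by limma without both arrays numbered 2, and 10 of the 11 in the test of all 6 arrays and in that without MBELN 2. The summed log2 values of the 10 heart muscle genes were 175.5, 47.61 and 179.8 in MBELN 1, 2 and 3 and between 46.93 and 51.01 in PBS. All 10 were higher by limma without both arrays numbered 2 and without MBELN 2, and 1 of the 10 in the test of all 6 arrays. The part of these genes in the Cnp result was not tested.

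Hybridisation control probe sets divided the arrays into a higher level (MBELN 1, MBELN 3, PBS 2) and a lower one (MBELN 2, PBS 1, PBS 3). Within the higher level 0 of 9 genes passed, against 18.8% of all probe sets, with 0 at an unadjusted p under 0.05, and the differences lay between -0.68 for Cnp and 0.21 for Olig2. Within the lower level, MBELN 2 alone against PBS 1 and PBS 3, the difference was 14.66 for Mbp and 5.16 for Cnp on the log2 scale, and the PBS values of the other 7 lay below the dim level. All 9 were called higher there by limma, as were 16.8% of all probe sets. This restates the values of MBELN 2, with which the genes were chosen, and the spread within a gene came from PBS 1 and PBS 3 alone, so nothing is read from it. With the level as a block, 0 of 9 passed, against 6.19% of all probe sets, and Mbp differed by 7.41 ± 3.34 (adjusted p = 0.287). The PBS arrays, whose gut epithelium medians were between 18.18 and 19.38, lay in both levels.

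**Figure D3:**
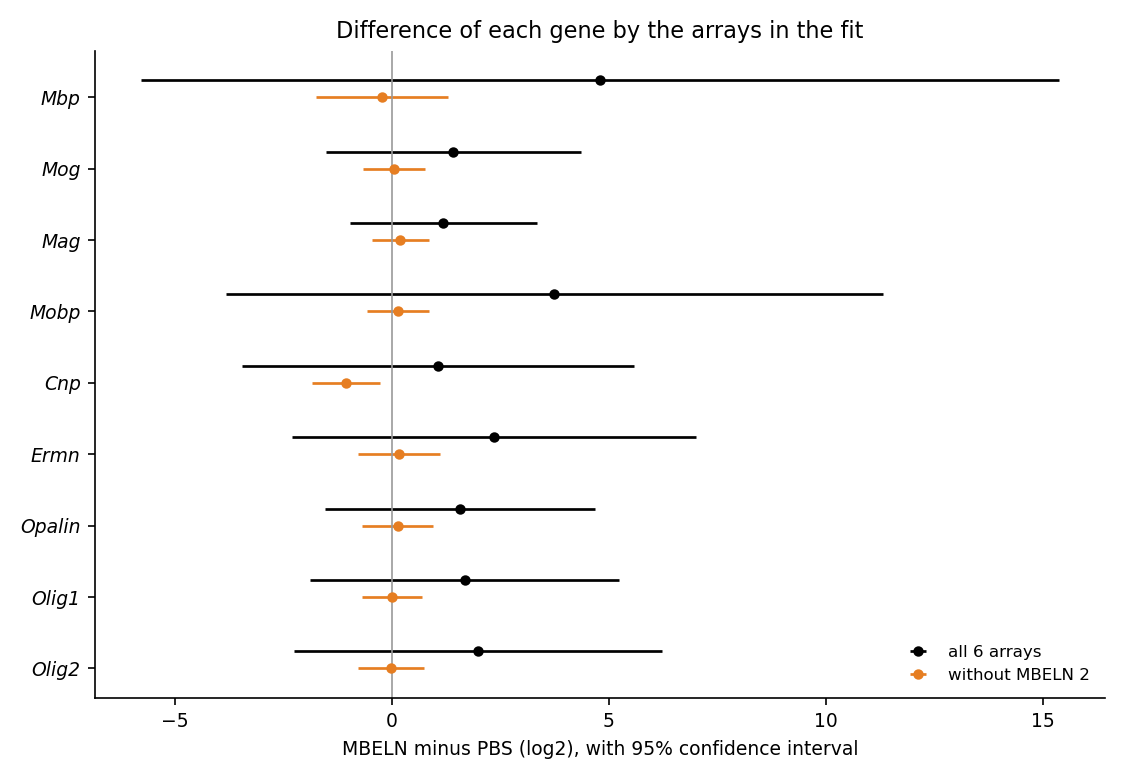
MBELN minus PBS difference (log2, horizontal axis) of each gene with its 95% interval, from all 6 arrays (black) and without MBELN 2 (orange). The black intervals all include 0. The orange points lie between -0.23 and 0.20 except Cnp at -1.06, and 7 of the 9 genes lie below the dim level in all 5 arrays behind them.

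Of 23 further myelin and oligodendrocyte genes, 20 were measured. None passed the test in either direction (limma), 3 had an unadjusted p under 0.05, against 17.8% of all probe sets, and their median difference was 1.09. Their highest value lay in MBELN 2 for 14 of 20, against 24.6% of all probe sets. With the other arrays raised to the dim level it stood at least 2 log2 units above them for 10, against 8.23%. Without MBELN 2, 0 of the 20 were called higher and 2 lower by limma, Bcas1, expressed in maturing oligodendrocytes and in epithelia, and Gal3st1, while 16.8% of all probe sets were called in either direction. Omg, a glycoprotein on oligodendrocytes and neurons, read 3.83, 15.89 and 3.08 in MBELN 1, 2 and 3, and 4.15, 4.75 and 3.30 in PBS 1, 2 and 3. Cldn11, the claudin that seals myelin layers, read 2.73, 11.37 and 4.10 in MBELN 1, 2 and 3, and 3.13, 3.04 and 3.17 in PBS 1, 2 and 3. Ugt8a, which makes the galactolipid of myelin, read 8.89 in MBELN 2 and at most 3.45 elsewhere. Sox10 read 4.99 in MBELN 2 and at most 4.28 elsewhere, and Myrf 8.46 in MBELN 2 and 7.45 in PBS 3.

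The other 6 of the 20 stood highest elsewhere, 5 of them in PBS arrays. Aspa, which splits N-acetylaspartate, read 5.90, 7.2 and 6.93 in MBELN 1, 2 and 3, and 13.86, 4.91 and 13.97 in PBS 1, 2 and 3. Pllp, a tetraspan membrane protein, read 11.17 in PBS 2 and 5.29 in MBELN 2. Gjb1, a connexin that liver also makes, read 8.09 in PBS 3 and 4.83 in MBELN 2. Gal3st1, a sulfatide-making enzyme, and Fa2h, a fatty acid hydroxylase, were highest in PBS 2 at 7.15 and 7.66. In MBELN 2 these last genes read 4.86 and 7.17. Nkx2-2, a transcription factor of the lineage, was below the dim level in all 6 arrays.

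Of 8 oligodendrocyte precursor genes, 7 were measured and 0 passed (limma), with 0 at an unadjusted p under 0.05. In this list 5 of 7 stood highest in MBELN 2, against 24.6% of all probe sets. Of these, 4 did so by at least 2 log2 units over the other arrays raised to the dim level, against 8.23%. Without MBELN 2, 1 was called higher, Enpp6, and 0 lower, against 16.8% of all probe sets in either direction. Cspg5, a proteoglycan of the neural surface, read 13.71 in MBELN 2 and at most 3.76 elsewhere, and Ptprz1, a receptor phosphatase shared with astrocytes, read 13.49 in MBELN 2 and at most 4.72 elsewhere. Gpr17, a receptor of committed precursors, read 5.33 in MBELN 2. Cspg4, the proteoglycan that marks precursors, read 4.21 in MBELN 2 and 4.96 in PBS 1, and Enpp6, a choline phosphodiesterase, read 8.11 and 7.33 in MBELN 1 and MBELN 3 and 3.78 in MBELN 2.

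Of 8 genes of peripheral myelin, made by Schwann cells, 6 were measured. None stood highest in MBELN 2 by 2 log2 units, against 8.23% of all probe sets. The list's median in MBELN 2 was 3.11, and 4 of the 6 were below the dim level in all 6 arrays. Pmp22, a membrane protein of peripheral myelin that epithelia also make, read 13.98, 8.64 and 13.77 in MBELN 1, 2 and 3, and 19.39, 19.92 and 18.75 in PBS 1, 2 and 3 (limma, adjusted p = 0.0607). Without MBELN 2 it was the single call of the 6, lower in MBELN, against 16.8% of all probe sets in either direction.

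**Figure D4:**
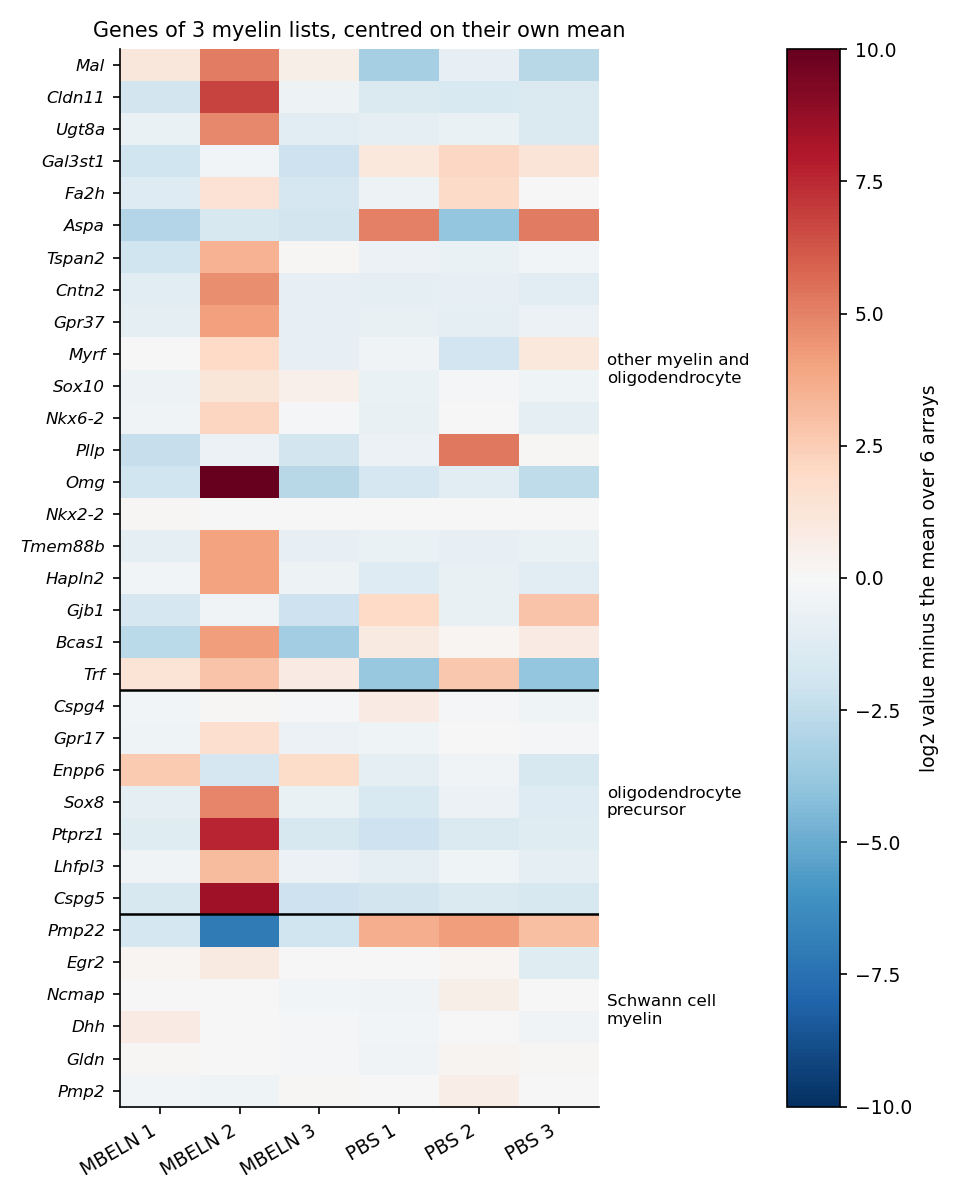
Log2 values of the genes of 3 myelin lists in each array, each centred on its own mean over the 6 arrays (red above it, blue below). Red cells of MBELN 2 fill most of the upper list and part of the precursor list, with Omg highest, whereas Pmp22 of the Schwann cell list is blue there.

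Neuron and node genes were highest in the same array as the 9 genes, and their part in the values was not tested. All 12 neuron genes were highest in MBELN 2 by at least 2 log2 units, with the other arrays raised to the dim level. So were all 7 genes of the node of Ranvier and its flanks, where myelin meets the axon, against 8.23% of all probe sets. None of the 19 passed the test of all 6 arrays (limma), against 1.42% of all probe sets called higher and 3.76% lower. At an unadjusted p under 0.05 was 1 of the 19, against 17.8% of all probe sets. Without MBELN 2, 2 of the 12 neuron genes were called higher, Camk2a and Slc17a7, and 2 lower, Snap25 and Syt1. Of the 7 node genes 0 were called there, with 0 at an unadjusted p under 0.05. The share called among all probe sets in that setting was 16.8%, in either direction. The summed log2 value of the neuron genes was 57.17, 190.2 and 56.84 in MBELN 1, 2 and 3 and between 54.94 and 55.94 in PBS. That of the node genes was 27.58, 85.80 and 28.91 in MBELN 1, 2 and 3 and between 29.35 and 30.46 in PBS. Cntnap1, an axonal protein of the junction with myelin, read 12.47 in MBELN 2 and at most 3.47 elsewhere.

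Astrocyte, microglia and enteric glia genes were mixed. Of 8 astrocyte genes, 5 stood highest in MBELN 2 by that margin, against 8.23% of all probe sets. Among the 5 was Slc1a2, the main glutamate transporter, with 19.75 in MBELN 2 and at most 4.48 elsewhere. The single astrocyte gene that passed the test was Gja1, a connexin that heart muscle also makes. It read 12.60, 11.03 and 13.86 in MBELN 1, 2 and 3, against 6.67, 7.02 and 7.56 in PBS 1, 2 and 3, and so rose by 5.42 ± 0.76 log2 units (SE) with a limma adjusted p of 0.0180. Its highest array was thus MBELN 3. Aldh1l1 and Slc4a4, chosen after their values were seen, were highest in PBS 3 and PBS 1 at 9.40 and 11.20. In MBELN 2 they read 6.93 and 11.12, so Slc4a4 was nearly level in MBELN 2 and PBS 1. Without MBELN 2, 1 astrocyte gene was called higher, Gja1, and 3 lower, against 16.8% of all probe sets in either direction.

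Of 6 microglia genes 1 stood highest in MBELN 2 by that margin, against 8.23% of all probe sets. This was P2ry12, a purine receptor, with 9.35 in MBELN 2 and 7.04 in MBELN 3. Csf1r, a growth factor receptor of macrophages, read 11.85, 8.33 and 10.92 in MBELN 1, 2 and 3, and 6.58, 10.80 and 5.26 in PBS 1, 2 and 3. Trem2, a lipid receptor of macrophages, was highest in MBELN 3. No microglia gene passed the test with all 6 arrays (limma), against 1.42% of all probe sets called higher and 3.76% lower. None passed without MBELN 2, against 16.8% in either direction. At an unadjusted p under 0.05 were 2 of the 6 with all arrays, against 17.8% of all probe sets. Without MBELN 2 there were 3, against 6508 of 22206 probe sets.

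Of 7 enteric glia genes 3 stood highest in MBELN 2 by that margin, against 8.23% of all probe sets. These were Sox2, Gfap and S100b, which the brain also expresses. The single call of that list went the other way: Erbb3, a neuregulin receptor that epithelia also make, read 4.25, 4.27 and 5.35 in MBELN 1, 2 and 3, against 12.51, 11.16 and 12.04 in PBS 1, 2 and 3. It fell by 7.28 ± 0.51 log2 units (SE, limma adjusted p = 0.00225), while 3.76% of all probe sets were called lower. Erbb3 was also the single call, lower in MBELN, without MBELN 2, against 16.8% of all probe sets in either direction. The medians of the gut epithelium genes were also lower in MBELN, at 7.13, 3.03 and 6.08 in MBELN 1, 2 and 3 against 18.18 to 19.38 in PBS. Fewer cells of a type and less RNA per cell cannot be told apart in such samples. Whether the arrays held another tissue was not tested.

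By the root mean square difference of values centred over the 6 arrays, the genes nearest to the median pattern of the 9 were Dcc, Oprl1, Zkscan16, Ppfia2 and Pak7, at 0.10 to 0.15 log2 units. Dcc, a netrin receptor of axons, read 8.38 in MBELN 2 and at most 2.85 elsewhere. Oprl1, the nociceptin receptor, read 8.23 in MBELN 2 and at most 2.87 elsewhere. Likeness to this pattern was not rare, since 476 of 19496 other genes had a Pearson correlation with it of at least 0.99. Such a correlation over 6 arrays rests largely on 1 array.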

How the data were processed

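RNA labelled as colon crypt RNA was measured on 6 single-colour arrays, 3 MBELN and 3 PBS, grouped by their titles. Per the labels' protocols, 90 ng of Trizol-extracted total RNA was made into biotinylated cRNA, and an Ion AmpliSeq assay, a sequencing method, is named as well. The submitters' processing notes name Transcriptome Analysis Console 4.0. The authors deposited 1 log2 value per probe set and array; the log2 scale is inferred from the values, and how values were summarized and normalized, and on which genome build, is not given in the sources used here. Of 28846 probe sets, 6640 were controls and left out.

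The remaining 22206 were compared with lmFit and eBayes of limma 3.58.1 (R 4.3.3), two-sided, without covariates, with Benjamini-Hochberg adjustment and a threshold of 0.05. Members, lists and motifs were chosen with earlier results of these data known. All members were named, any gene of the further myelin and precursor lists, up to 4 genes with the largest range of each other list, and the 5 genes nearest in pattern. Aldh1l1 and Slc4a4 of the astrocyte list were named outside this rule. The procedure was tested on simulated data. It recovered 0.0% of changes of 1 log2 unit, 12.0% of 2, 49.2% of 4 and 79.6% of 8. A gene that did not pass is therefore not shown to be unchanged. Alternatives were other normalizations, a filter on dim probe sets, variance models, array weights, blocks and arrays left out. Figures were drawn with matplotlib 3.10.9.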

Additional observations from a re-analysis of the deposited data

How the results depend on the processing

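With 3 arrays per label, differences rest on few values, and values below the dim level have no order. Other probe sets of a gene could not be tried, since each gene had 1. Over 137 refits of single genes, 115 kept direction and side of the threshold, 9 passed it in the same direction and 13 turned direction. Among the 13, Cnp without both arrays numbered 2 also passed the threshold. The count of genes of the 9 past the threshold was 0 under all alternatives except within the arrays of lower hybridisation control level (9, with MBELN 2 as the single MBELN array) and without both PBS 2 and MBELN 2 (1, Cnp); it was 0 for each array left out in turn, with 1 at an unadjusted p under 0.05 (Cnp, without MBELN 2). The filter on dim probe sets kept 2 of the 9.

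Directions turned for Cnp with array weights (-0.92), within the higher control level (-0.68) and without both arrays numbered 2 (-1.25). Within the higher level they also turned for Ermn (-0.10), Mobp (-0.13), Mog (-0.052) and Opalin (-0.30), and without both arrays numbered 2 for Mbp (-0.42), Olig1 (-0.039) and Olig2 (-0.13). With each array left out in turn, the difference ranged from -1.06 to 2.15 for Cnp, from -0.23 to 7.71 for Mbp and from -0.016 to 3.02 for Olig2, the lowest each time without MBELN 2. Size was not part of the count of refits that kept direction. Among those, Mbp went from 4.80 to 0.34 with array weights. Without MBELN 2, Ermn went from 2.36 to 0.16 and Mobp from 3.75 to 0.13.

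Over all probe sets, 1150 were called (limma, 72.6% lower), and 5757 with array weights (50.1% lower), 4174 within the higher and 7234 within the lower control level, 6769 without both arrays numbered 2, and 377 to 3738 with 1 array left out. The lowest of these was without PBS 1 and the highest without MBELN 2, and leaving out PBS 3, MBELN 1 or MBELN 3 gave 379, 501 and 447 in that order. With the replicate number as a block the count was 456 and 0 of the 9 passed. The deviations of same-numbered arrays correlated at -0.03, -0.07 and -0.06, and those of differently numbered arrays at between -0.09 and 0.08. These values cannot decide whether the arrays were paired, since the MBELN deviations are dominated by the contrast of MBELN 2 with MBELN 1 and MBELN 3. The cause of the changes in the counts of calls was not tested. The gene lists without MBELN 2, and without both arrays numbered 2, were tested after the data had been seen. Without both, 2 of the 20 further myelin genes were called higher and 6 lower, and 3 of 6 microglia genes higher. Of all 22206 probe sets, 3354 were called higher and 3415 lower in that setting, so calls were common there.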
